A study of Bos taurus with 8 samples.

Results

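The mitochondrial respiratory chain and the ATP synthase are described here by 81 of the 18871 named gene rows of a bovine RNA-seq table. The 81 members were chosen by symbol, not by value: rows beginning with NDUFA, NDUFB, NDUFC, NDUFS or NDUFV and a number, the *SDH* genes A to D, and rows beginning with UQCR, with COX and a number from 4 to 8, or with ATP5. They comprised 36 members of complex I, 4 of complex II, 8 of complex III, 13 of complex IV and 20 of complex V. *NDUFA4* and *NDUFA4L2*, named for complex I, were counted with complex IV, to which NDUFA4 protein belongs. All 81 members had at least 20 counts in total and were tested.

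The respiratory chain sits in the inner mitochondrial membrane. Complexes I and II pass electrons from NADH and succinate to ubiquinone, complex III passes them to cytochrome c, and complex IV passes them to oxygen. Complexes I, III and IV pump protons as they do so, and complex V, the ATP synthase, makes ATP from the returning protons. Most subunits are encoded in the nucleus and imported, and a small core of complexes I, III, IV and V is encoded by mitochondrial DNA. Muscle and brown fat are rich in mitochondria, and white fat and its precursors less so.

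RNA was sequenced from 8 preadipocyte clones, each grown from a single cell of the stromal vascular fraction (SVF), the non-adipocyte cells released from digested fat. Clones IMF1 to IMF4 came from intramuscular fat (IMF), the fat deposited within muscle, and clones SF1 to SF4 from subcutaneous fat (SF), all from adult male castrated cattle (steers) of Angus cross breed. The labels give no genotype or drug treatment for either group. According to the study's methods, clones were picked for fast growth, strong adipogenic potential and fibroblast-like shape, and RNA was taken at subconfluence, whereas the deposited design text places adipogenic induction before sequencing. In the study's methods the induction medium holds insulin, dexamethasone, IBMX and rosiglitazone, so under that account the clones were not untreated. By those methods the clones of a group each came from a different SVF sample, and the sources do not tie clones to animals. The labels give 5 animals and the methods 6, so that, if an animal gave 1 sample of each fat, at least 3 or 2 animals gave clones of both groups, a link that the fit without pairs leaves out. Each group is therefore 4 selected clones, and p-values measure the spread between these clones only. Counts on named genes totalled 19654917 to 29308882 per clone, so that 3 counts corresponded to 0.0981 to 0.165 CPM (counts scaled to library size), and every pair of clones differed by more than sampling noise over the members (chi-square per degree of freedom from 3.05 to 50.3).

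The clones carried markers beyond those of preadipocytes. The counts of markers below use an adjusted p under 0.05, which 14.4% of all genes tested passed as higher and 11.4% as lower in IMF clones. Of 13 skeletal muscle markers listed, 12 were tested and all 12 were higher in IMF clones, with summed levels of 829 to 953 CPM in IMF and 2.35 to 24.7 CPM in SF, and *MYOD1*, *MYOG*, *TNNC1* and *CKM* had no count in any SF clone. Of 10 endothelial markers, 9 were higher in IMF clones, with summed levels of 325 to 367 CPM against 27.3 to 38.1 CPM, and *KDR*, *EMCN* and *SELE* had no count in SF clones. The 10 fibroblast and preadipocyte markers summed to 31861 to 33389 CPM in IMF and 53368 to 60726 CPM in SF, with 1 higher and 4 lower in IMF clones. Of 7 tested pericyte and smooth muscle markers (1199 to 1331 CPM in IMF, 1551 to 7469 CPM in SF) 2 were higher and 3 lower, and of 8 leukocyte markers (28.4 to 51.2 CPM in IMF, 57.3 to 96.8 CPM in SF) 1 was higher and 1 lower. Of 6 adipocyte markers 2 were higher and 0 lower (2 lower at an unadjusted p under 0.05, and 0 lower by DESeq2 or limma-voom after adjustment). The part of these markers in the results on the respiratory chain was not tested. In RNA from whole clones, a larger share of cells rich in mitochondria and more transcript per cell cannot be told apart.

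The members of the chain that changed were all higher in IMF clones, and by small amounts. In the edgeR quasi-likelihood test, adjusted by Benjamini-Hochberg over 18339 genes, 30 of 81 members (37.0%) had an adjusted p under 0.05 and were higher in IMF clones, where 14.4% of all genes tested were. No member was lower in IMF clones at that threshold (0 of 81, against 11.4% of all genes; 1 member, *NDUFA13*, was lower at an unadjusted p under 0.05, and DESeq2 and limma-voom called 0 after adjustment). The median log2 fold change (IMF over SF) was 0.26 over the members and -0.03 over all genes, and 70 of 81 members had a positive sign. In what follows, a value beside a gene without a unit is its log2 fold change. All 4 IMF clones lay above all 4 SF clones for 35 members (18.0% of all genes) and below them for 0 members (14.1% of all genes). No member passed this threshold together with the study's second criterion, a log2 fold change of 1 or more in size (0 of 81 in either direction by edgeR, DESeq2 and limma-voom, and 0 with an unadjusted p under 0.05 and such a fold change), whereas 4.78% of all genes passed both as higher and 4.04% as lower in IMF clones. The count of 30 fell to 17, 15 and 19 when IMF1, IMF2 or IMF3 was left out, and the share of all genes called higher fell with it, to 11.1%, 9.62% and 9.82%. With the clone number added to the fit as a block, 18 members were called and 11.5% of all genes were higher.

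The share over all genes depended on which rows it covered. Among the 9169 genes with a mean level below the median gene, which held 6 of the 81 members, 9.56% were higher in IMF clones, and in 3 bins of the genes above the median 17.8% to 20.2% were. With the test run only on the 14297 rows whose symbol or synonym is in the RefSeq list, 30 members were again called higher, against 19.0% of the genes tested, and the median of the members lay 0.24 above that of all genes instead of 0.29.

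**Figure D1:**
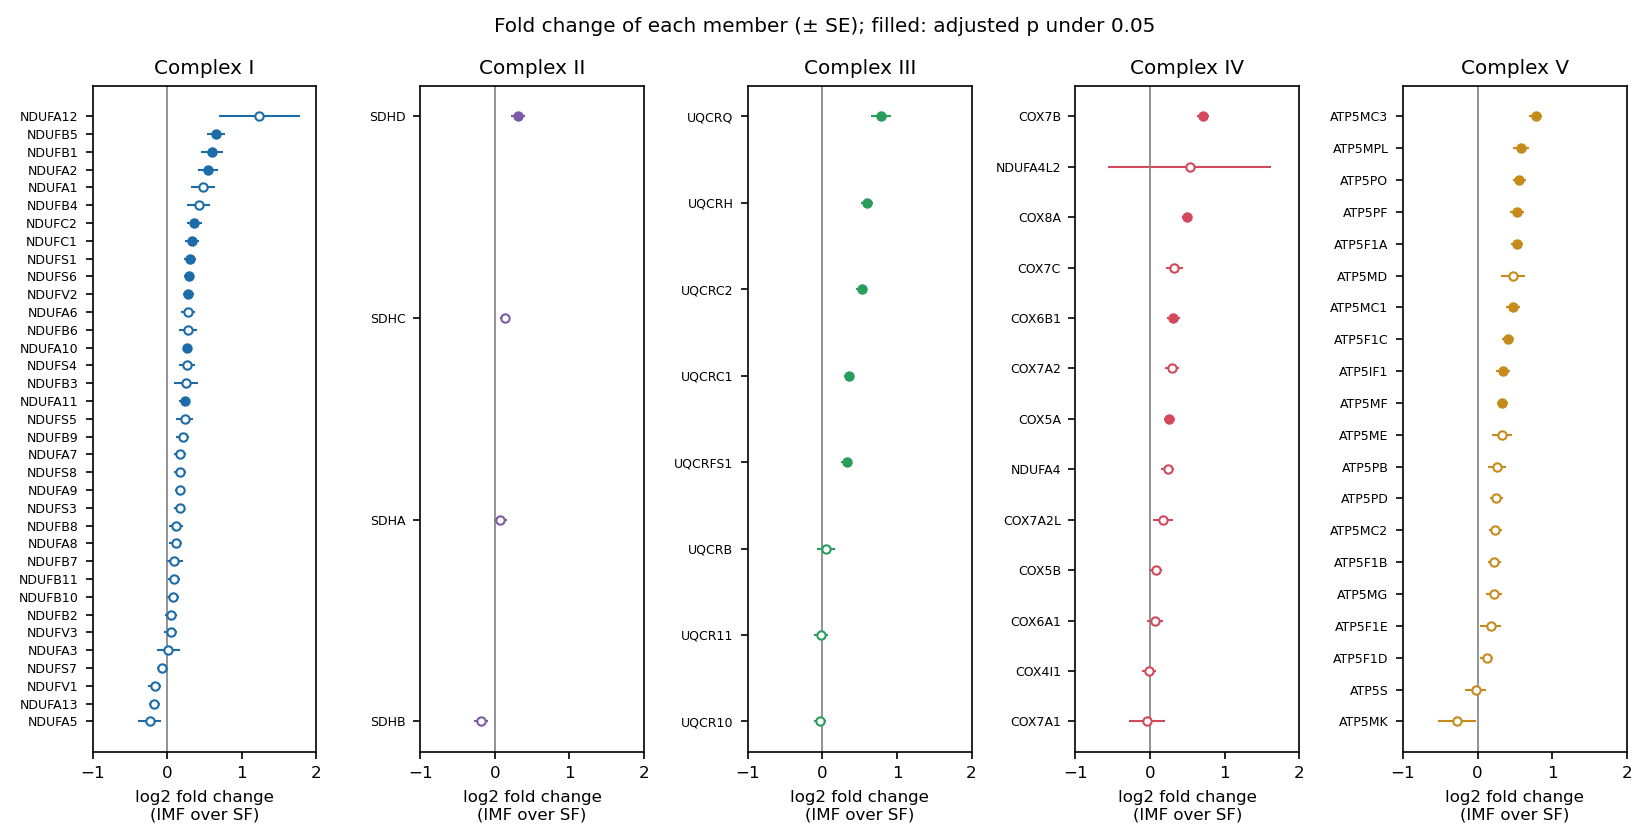
The log2 fold change (IMF over SF, horizontal axis) of 80 of the 81 members, by complex, with bars of 1 SE from edgeR and filled points where the adjusted p was under 0.05. The 29 filled points all lie to the right of 0, from 0.23 for NDUFA11 to 0.79 for UQCRQ, and the widest bars belong to NDUFA12 and NDUFA4L2.

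Within the IMF group the members did not sit at one level. Measured as the median over the 81 members of log2 CPM minus the mean of the SF clones, IMF1 to IMF4 stood at 0.29, 0.37, 0.21 and 0.085 and SF1 to SF4 at -0.038, 0.067, -0.049 and 0.037, while over all genes tested the same median lay between -0.0057 and 0.0042 in every clone. IMF2, also the deepest library, held the highest IMF value for 66 of 81 members, and IMF4 the lowest for 65. Among the 8642 genes with a mean of at least 10 CPM in both groups, IMF2 was the highest of the IMF clones for 4041 and IMF4 the lowest for 3772. In the SF group SF1 was lowest for 37 members and SF3 for 29, and SF2 was highest for 38. By this median IMF4 was the IMF clone nearest to the SF group. The median SD of log2 CPM between clones was 0.13 for the members in IMF and 0.11 in SF, against 0.15 and 0.29 for all genes. The values for all genes include rows with few counts. Among the 10586 rows with a symbol in the RefSeq list and a mean count of 100 or more, the median SD in IMF was 0.093. The 79 members with such counts had a median of 0.13, and so varied more between IMF clones than these rows.

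**Figure D2:**
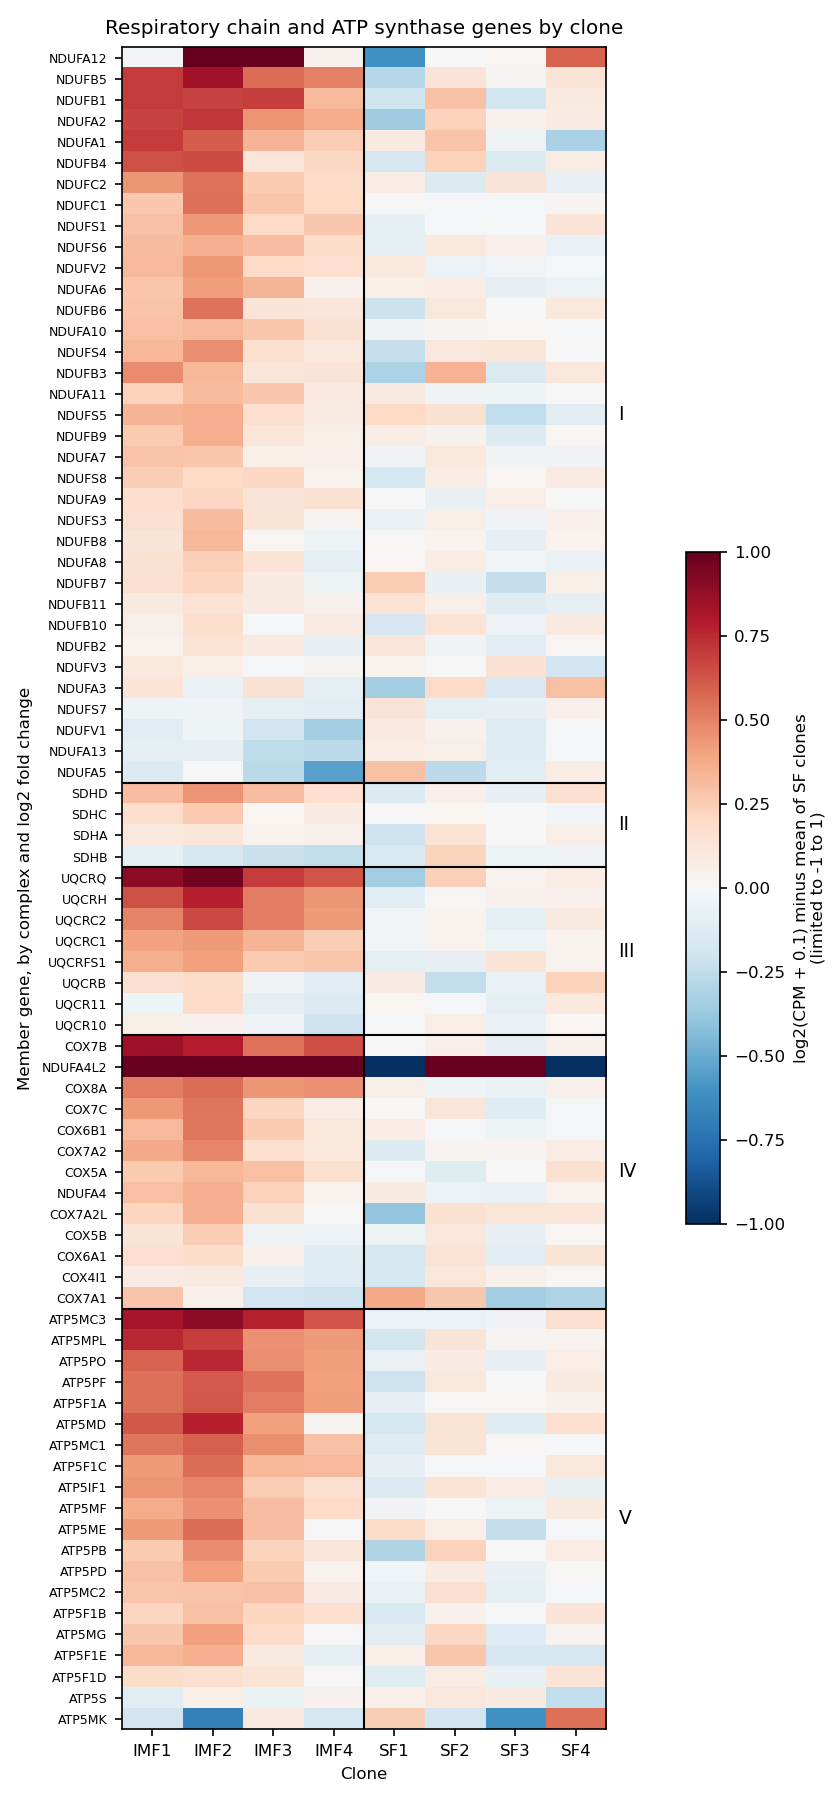
Each row is 1 of 80 members and each column a clone, and the colour gives log2(CPM + 0.1) minus the mean of the SF clones, limited to the range from -1 to 1, with members ordered by complex (I to V, lines between) and fold change. The red block on the left is deepest in IMF2 and palest in IMF4, and rows at the foot of each complex show no separation of the groups.

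Complex I, the largest complex, oxidises NADH. The counts for each complex are to be read against the 14.4% of all genes higher and 11.4% lower, and the 17.8% to 20.2% higher among genes above the median level. Of its 36 members 11 were higher in IMF clones (30.6%) and 0 lower, with a median log2 fold change of 0.23. Among the 7 core subunits, which carry the flavin and iron-sulfur clusters, 3 were higher, *NDUFS1* and *NDUFV2* among them, and among the 29 accessory subunits 8 were higher. *NDUFB5*, an accessory subunit of the membrane arm, was at 33.6, 37.2, 30.6 and 29.5 CPM in IMF1 to IMF4 and 17.0, 22.6, 21.1 and 22.6 CPM in SF1 to SF4. All 4 IMF values lay above the SF values (a log2 fold change of 0.65, SE 0.12, adjusted p = 0.00445). *NDUFA10*, an accessory subunit of the membrane arm, was at 65.9, 66.7, 64.7 and 59.4 CPM in IMF1 to IMF4 and 52.1, 54.3, 54.1 and 53.0 CPM in SF1 to SF4 (a log2 fold change of 0.27, SE 0.062, adjusted p = 0.0147). The groups did not overlap, but the call was lost without IMF2 (adjusted p = 0.0561) and in 2 of the 8 fits that left out 1 clone. Core subunit *NDUFS1*, which carries iron-sulfur clusters, was also higher (a log2 fold change of 0.30, SE 0.079, adjusted p = 0.0243), and its call was lost in 5 of the 8 fits. Other called members included *NDUFS6*, *NDUFB1*, *NDUFA2*, *NDUFV2*, *NDUFC2*, *NDUFC1* and *NDUFA11*, with log2 fold changes from 0.23 to 0.60. Each of these 7 kept its call in 2 to 6 of the 8 fits, *NDUFV2* in 2.

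Not every subunit of complex I followed. *NDUFV1*, the core subunit that binds NADH and flavin, was at 89.2, 93.2, 84.0 and 75.5 CPM in IMF1 to IMF4 and 103, 98.9, 88.1 and 95.0 CPM in SF1 to SF4. The groups overlapped, and its log2 fold change of -0.17 (SE 0.088, adjusted p = 0.193) had the opposite sign to that of its partner in the NADH-binding module, *NDUFV2* (0.28, SE 0.079, adjusted p = 0.0304). *NDUFA13*, an accessory subunit also known as GRIM-19, gave -0.17 (SE 0.075, adjusted p = 0.129), and among the settings run was called lower only when SF3 was left out. *NDUFA5* (-0.24) and *NDUFS7* (-0.07) were the other 2 members of complex I below 0, neither called, and the sign of *NDUFS7* turned positive under total-count scaling. *NDUFB8*, the member of complex I with the highest level per length (168 ± 19.6 TPM in IMF and 154 ± 13.4 TPM in SF (SD, n = 4)), gave 0.11 (adjusted p = 0.411).

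*NDUFA12* had the largest log2 fold change of all members and was not called (a log2 fold change of 1.23, SE 0.54, adjusted p = 0.134). Its level was 3.50, 17.8, 9.84 and 3.66 CPM in IMF1 to IMF4 and 2.31, 3.55, 3.61 and 5.40 CPM in SF1 to SF4. IMF2 and IMF3 stood above every other clone, and IMF1 and IMF4 lay within the SF range. Its SD of log2 CPM over IMF clones, 1.13, was the only one above 0.4 among the 79 members whose mean count was 100 or more. An SD above 0.4 was uncommon among rows whose symbol is in the RefSeq list (5.79% of 10586) and common among rows with LOC identifiers that the list does not hold (74.4% of 804), and what sets the spread of *NDUFA12* was not tested. Leaving out *NDUFA12* and *ATP5MK*, described below with complex V, left 30 of 79 members higher and 0 lower.

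Complex II, succinate dehydrogenase, belongs to both the chain and the citric acid cycle and has no subunit encoded by mitochondrial DNA. Of its 4 genes 1 was called. *SDHD*, a membrane anchor, was at 48.1, 52.8, 48.0 and 43.4 CPM in IMF1 to IMF4 and 35.2, 40.2, 36.6 and 43.4 CPM in SF1 to SF4 (a log2 fold change of 0.31, SE 0.091, adjusted p = 0.0382), and its call was lost in 6 of the 8 fits that left out 1 clone (adjusted p up to 0.107). IMF4 lay just above SF4, and the other clones were further apart. *SDHC*, the other anchor, gave 0.14 (adjusted p = 0.181), and *SDHA*, the flavin-binding catalytic subunit, gave 0.07 (adjusted p = 0.609). *SDHB*, the iron-sulfur subunit, was at 68.2, 65.3, 62.7 and 61.6 CPM in IMF1 to IMF4 and 65.8, 85.3, 70.9 and 71.2 CPM in SF1 to SF4, with overlapping groups and SF2 highest (a log2 fold change of -0.19, SE 0.091, adjusted p = 0.172). Summed over the 4 genes, complex II stood at 432, 439, 408 and 406 in IMF1 to IMF4 and 358, 442, 399.6 and 417 in SF1 to SF4 (CPM), with overlapping groups.

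Complex III, the cytochrome bc1 complex, had 5 of 8 members higher and 0 lower, and a median log2 fold change of 0.34. The 2 core proteins were both higher. *UQCRC2* was at 66.3, 73.9, 66.6 and 62.8 CPM in IMF1 to IMF4 and 46.0, 47.9, 43.7 and 49.9 CPM in SF1 to SF4 (a log2 fold change of 0.52, SE 0.075, adjusted p = 0.00153), and *UQCRC1* was at 174, 177, 166 and 156 CPM in IMF1 to IMF4 and 129, 135, 127 and 135 CPM in SF1 to SF4 (a log2 fold change of 0.36, SE 0.071, adjusted p = 0.00741). In both genes the lowest IMF clone lay above the highest SF clone. The hinge protein gene *UQCRH* was at 56.9, 62.5, 52.2 and 49.5 CPM in IMF1 to IMF4 and 34.0, 36.8, 37.6 and 37.7 CPM in SF1 to SF4 (a log2 fold change of 0.60, SE 0.086, adjusted p = 0.0016). *UQCRQ* had the largest log2 fold change of any called member (a log2 fold change of 0.79, SE 0.13, adjusted p = 0.00345), with 61.5, 64.9, 53.8 and 51.2 CPM in IMF1 to IMF4 and 26.0, 39.0, 33.9 and 34.9 CPM in SF1 to SF4. SF1 was the lowest clone and the groups did not overlap. The Rieske iron-sulfur protein gene *UQCRFS1* was higher by 0.33 (adjusted p = 0.0138), and lost its call in 1 of the 8 fits that left out 1 clone and in the fit with the clone-number block (adjusted p = 0.0571). The remaining 3 genes encode small subunits and were not called: *UQCRB* gave 0.04, *UQCR10* -0.03 and *UQCR11* -0.02, with SEs of 0.12, 0.076 and 0.089. *UQCR10* was at 38.3, 38.1, 35.9 and 31.9 CPM in IMF1 to IMF4 and 36.4, 38.5, 35.3 and 37.4 CPM in SF1 to SF4. IMF4 lay below every SF clone, and the other 3 IMF clones lay within the SF range. The signs of *UQCR10* and *UQCR11* turned positive when libraries were scaled by total counts alone, and that of *UQCRB* turned negative without IMF2, SF2 or SF3.

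Complex IV, cytochrome c oxidase, had 4 of 13 members higher, 0 lower and a median of 0.26. *COX7B* was at 36.5, 35.0, 29.6 and 31.8 CPM in IMF1 to IMF4 and 20.2, 21.0, 19.1 and 20.8 CPM in SF1 to SF4 (a log2 fold change of 0.71, SE 0.083, adjusted p = 0.000576), and *COX8A* was at 74.9, 77.7, 71.6 and 72.1 CPM in IMF1 to IMF4 and 54.9, 51.1, 50.2 and 54.4 CPM in SF1 to SF4 (a log2 fold change of 0.49, SE 0.064, adjusted p = 0.000922). Both encode small membrane subunits, and in both the groups were far apart relative to their spread. *COX6B1*, whose protein faces the intermembrane space, and *COX5A* were higher by 0.31 and 0.26 (adjusted p = 0.037 and 0.039), and each lost its call in 6 of the 8 fits that left out 1 clone. *COX4I1*, the largest nuclear subunit, was at 169, 169, 150.5 and 146 CPM in IMF1 to IMF4 and 141, 173, 165 and 161 CPM in SF1 to SF4. The groups overlapped (a log2 fold change of -0.01, SE 0.092, adjusted p = 0.942), and the sign was positive under total-count scaling. *COX6A1* and *COX5B*, the 2 members of complex IV with the highest level per length, both gave 0.07 (adjusted p = 0.683 and 0.596).

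Several subunits of complex IV have a second isoform used mainly in heart and skeletal muscle or under low oxygen. *COX7A1*, the muscle and heart isoform, was at 3.45, 2.91, 2.45 and 2.43 CPM in IMF1 to IMF4 and 3.70, 3.40, 2.19 and 2.26 CPM in SF1 to SF4 and was not called (a log2 fold change of -0.04, SE 0.24, adjusted p = 0.932). Its share of the summed TPM of *COX7A1* and *COX7A2* was 6.91%, 5.49%, 5.75% and 5.93% in IMF1 to IMF4 and 10.2%, 8.51%, 5.69% and 5.69% in SF1 to SF4. The liver-type isoform *COX7A2* gave 0.29 (adjusted p = 0.0609), and *COX7A2L*, whose product takes part in joining complexes III and IV, gave 0.17 (adjusted p = 0.404). The muscle isoform was the minor one in every clone, with overlapping shares. *COX4I2*, *COX6A2*, *COX6B2*, *COX7B2* and *COX8B* were not among the 81 members and so were not analysed here.

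*NDUFA4L2*, an isoform of *NDUFA4* known for its induction under low oxygen, varied most among SF clones. It was at 3.74, 4.32, 2.54 and 3.57 CPM in IMF1 to IMF4 and 0.103, 1.50, 7.99 and 0.0551 CPM in SF1 to SF4. SF3 was the highest of all clones, SF1 and SF4 were under the limit that 3 counts allow, and the fit gave no call (a log2 fold change of 0.53, SE 1.09, adjusted p = 0.765). The fold change was unstable, with a log2 fold change of 2.32 by limma-voom (adjusted p = 0.142), of 2.62 without SF3 (adjusted p = 0.0800) and of 0.13 without SF4. *NDUFA4* itself was at 63.8, 66.7, 60.7 and 53.1 CPM in IMF1 to IMF4 and 54.9, 49.7, 49.4 and 53.1 CPM in SF1 to SF4 (a log2 fold change of 0.24, SE 0.085, adjusted p = 0.0735). The share of *NDUFA4L2* in the summed TPM of both was 2.36% to 3.73% in IMF clones and 0.0599% to 8.53% in SF clones. Of 12 listed targets of the low-oxygen factor HIF-1, 11 were tested. Of these 11, 2 were higher (18.2%, against 14.4% of all genes and 17.8% to 20.2% of genes above the median level) and 1 lower (11.4% of all genes), while DESeq2 and limma-voom each gave 4 higher and 1 lower. *SLC2A1*, the glucose transporter GLUT1, was at 31.8, 34.0, 29.9 and 30.2 CPM in IMF1 to IMF4 and 9.34, 9.61, 26.3 and 13.1 CPM in SF1 to SF4 (a log2 fold change of 1.10, SE 0.32, adjusted p = 0.0333), and here too SF3 was the highest SF clone. Its call held in 1 of the 8 fits that left out 1 clone, the fit without SF3.

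Complex V, the ATP synthase, had 9 of 20 members higher (13 by DESeq2 and 9 by limma-voom) and 0 lower, with a median of 0.33. *ATP5MC3*, 1 of 3 genes for the same c subunit of the proton-driven ring, had the lowest adjusted p of all members. It lies on chromosome 2 (21688206 to 21691318, ARS-UCD2.0) and was at 124, 130.2, 119.8 and 108 CPM in IMF1 to IMF4 and 67.3, 67.2, 68.4 and 78.2 CPM in SF1 to SF4 (a log2 fold change of 0.78, SE 0.086, adjusted p = 0.000428). The second, *ATP5MC1*, was higher too (a log2 fold change of 0.47, SE 0.089, adjusted p = 0.00559), and the third, *ATP5MC2*, was not called by edgeR (a log2 fold change of 0.24, SE 0.085, adjusted p = 0.0741) but was called higher by DESeq2. Per length, *ATP5MC3* stood at 289.8 ± 31.7 TPM in IMF and 166 ± 7.42 TPM in SF (SD, n = 4), *ATP5MC1* at 107 ± 12.9 TPM in IMF and 76.2 ± 11.6 TPM in SF (SD, n = 4) and *ATP5MC2* at 149 ± 18.3 TPM in IMF and 125 ± 18.6 TPM in SF (SD, n = 4). *ATP5MC3* was the most abundant of the 3 in both groups.

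In the catalytic F1 head, *ATP5F1A*, encoding the alpha subunit, was at 516, 543, 502 and 469.6 CPM in IMF1 to IMF4 and 334, 356, 357 and 362 CPM in SF1 to SF4 (a log2 fold change of 0.53, SE 0.082, adjusted p = 0.00223). *ATP5F1B*, encoding the catalytic beta subunit, was at 373, 395, 373 and 359 CPM in IMF1 to IMF4 and 288, 331, 317 and 350.2 CPM in SF1 to SF4, without overlap of the groups and without a call by edgeR (a log2 fold change of 0.22, SE 0.087, adjusted p = 0.0976), though DESeq2 called it higher. These were the 2 members with the highest CPM. Of the 3 central stalk genes *ATP5F1C* was higher (0.41, adjusted p = 0.00657), and *ATP5F1D* (0.12) and *ATP5F1E* (0.18) were not called. Of the 4 peripheral stalk genes, which hold the head still against the ring, *ATP5PO* (0.56, adjusted p = 0.00272) and *ATP5PF* (0.53, adjusted p = 0.0033) were higher and *ATP5PB* and *ATP5PD* were not called by edgeR. DESeq2 called *ATP5PD* higher as well. *ATP5IF1*, encoding the inhibitor that blocks ATP hydrolysis, was at 85.0, 87.9, 74.6 and 70.3 CPM in IMF1 to IMF4 and 56.7, 68.8, 66.0 and 59.3 CPM in SF1 to SF4 (a log2 fold change of 0.34, SE 0.10, adjusted p = 0.0367). The groups did not overlap, and its call was lost in 6 of the 8 fits that left out 1 clone. Among 6 rows for small membrane subunits *ATP5MPL* and *ATP5MF* were higher (0.59 and 0.33). *ATP5MF* lost its call in the edgeR fit with the clone-number block (adjusted p = 0.0515). *ATP5S*, listed by RefSeq as *DMAC2L* and encoding the coupling factor B, was at 4.61 to 5.23 CPM in IMF and 4.19 to 5.41 CPM in SF (a log2 fold change of -0.03, SE 0.14, adjusted p = 0.917). A second row under the symbol *DMAC2L* had unlike counts (SD of log2 CPM over IMF clones 1.42, against 0.086 for *ATP5S*), so that the value of this gene is uncertain.

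The rows *ATP5MD* and *ATP5MK* are 2 names of 1 gene in the RefSeq list (chromosome 26, 23982412 to 23987723, ARS-UCD2.0), and their counts differed. *ATP5MD* was at 35.6, 39.5, 30.6 and 23.5 CPM in IMF1 to IMF4 and 20.4, 25.3, 21.2 and 25.9 CPM in SF1 to SF4 (a log2 fold change of 0.48, SE 0.16, adjusted p = 0.0632), and *ATP5MK* at 156, 112, 191 and 159 CPM in IMF1 to IMF4 and 212, 156, 117 and 262 CPM in SF1 to SF4 (a log2 fold change of -0.28, SE 0.26, adjusted p = 0.478). Per length *ATP5MK* would be the most abundant member (655 ± 173 TPM in IMF and 762 ± 197 TPM in SF (SD, n = 4)), whereas *ATP5MD* stood at 152 ± 33.9 TPM in IMF and 108 ± 14.8 TPM in SF (SD, n = 4). Among all rows 98 genes appeared under both a former and a current symbol with unlike counts, and of 79 such pairs whose mean count was 100 or more in both rows the row with the current symbol had the larger SD over IMF clones in 74. The pair *ATP5MD* and *ATP5MK* was not among these 74, with close SDs of 0.324 and 0.320. The annotation release behind the rows, and whether there was more than 1, are not given in the sources used here. Which of the 2 rows measures the gene cannot be told from the table, so neither was used for a statement on this subunit. The counts, medians and sums given without *ATP5MK* still hold *ATP5MD*. They thus drop the row with the negative fold change, a choice made after the values were seen.

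**Figure D3:**
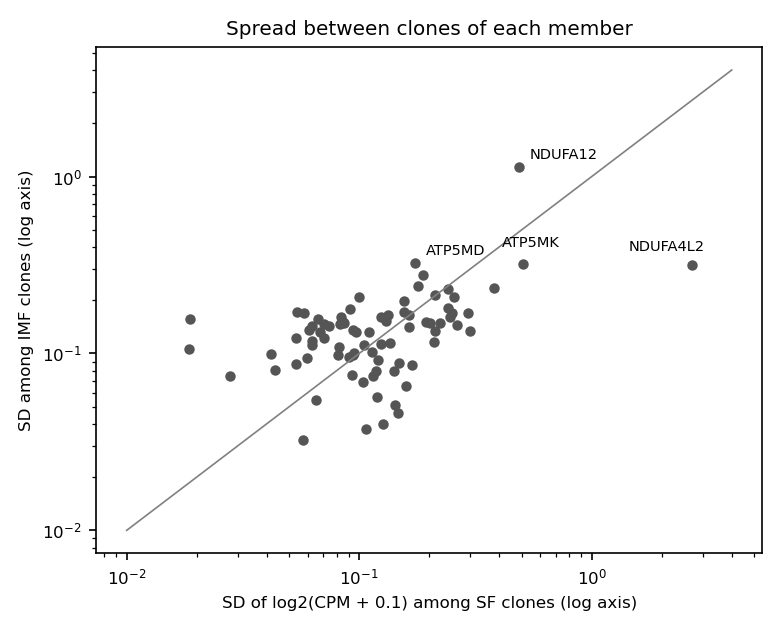
The SD of log2(CPM + 0.1) among the SF clones (horizontal) and the IMF clones (vertical) for each of the 81 members, on log axes with the line of equality. NDUFA12 lies far above the other members on the IMF axis, and NDUFA4L2 far to the right on the SF axis.

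Levels between subunits can be compared only per length, as TPM (counts scaled to gene length and library total) with the deposited gene lengths. The median subunit of complex I was at 69.9 TPM in IMF and 57.2 TPM in SF, that of complex II at 75.6 and 77.4, of complex III at 113 and 98.3, of complex IV at 177 and 148, and of complex V without *ATP5MK* at 149 and 106. Within complex I means over all clones ran from 11.1 TPM (*NDUFA5*) to 161 TPM (*NDUFB8*), a range of 14.6-fold. The range was 2.42-fold in complex II (*SDHC* to *SDHA*) and 2.95-fold in complex III (*UQCRC2* to *UQCR11*). In complex IV it was 58.5-fold, from *NDUFA4L2* to *COX6A1*, and in complex V *ATP5F1A* had the highest mean after the row *ATP5MK* (332 TPM).

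**Figure D4:**
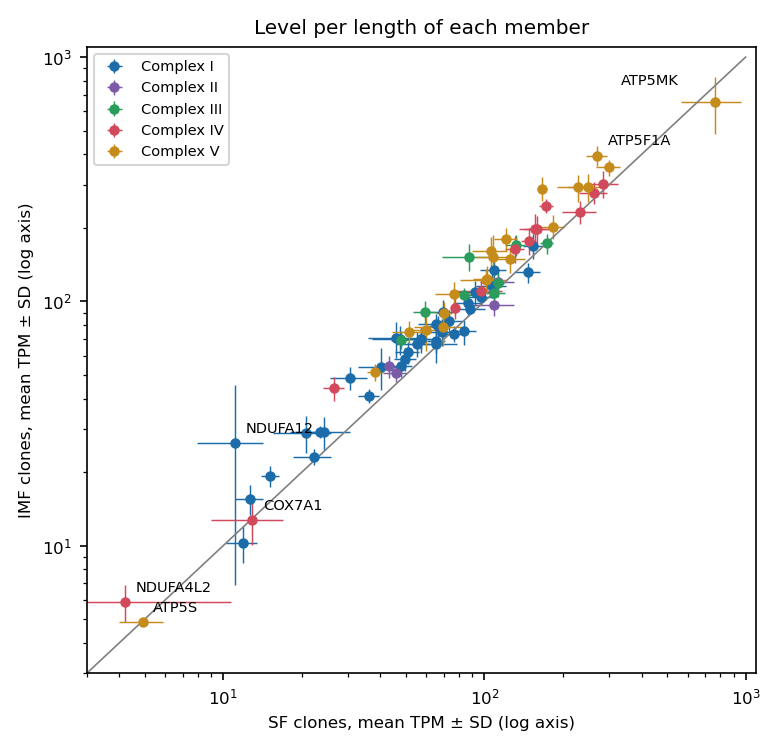
Mean TPM of each member in SF clones (horizontal) and IMF clones (vertical) with bars of 1 SD (n = 4), on log axes with the line of equality and coloured by complex. Most points lie just above the line. At the low end ATP5S, NDUFA5 and COX7A1 lie below it and NDUFA4L2 above, and ATP5MK, the highest point, lies below.

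Summed over its members, each complex gave one level per clone. In TMM-scaled CPM complex I stood at 1415, 1506, 1335 and 1263 in IMF1 to IMF4 and 1218, 1255, 1182 and 1229.6 in SF1 to SF4, complex III at 562, 592, 527 and 501 in IMF1 to IMF4 and 416, 431, 423 and 452 in SF1 to SF4, complex IV at 839, 879.6, 766 and 722 in IMF1 to IMF4 and 653, 734, 694 and 723 in SF1 to SF4 and complex V, the row *ATP5MK* included, at 2175, 2248, 2132 and 1958 in IMF1 to IMF4 and 1619.9, 1751, 1605 and 1849 in SF1 to SF4. Without that row complex V stood at 1799 to 2136 in IMF and 1408 to 1595 in SF. The groups did not overlap for complexes I, III and V (with or without *ATP5MK*), and overlapped for complex IV through IMF4. In summed TPM, which is scaled to each library's own total, the ranges of the groups overlapped for all 5 complexes. Without TMM scaling, the members' share of all counts did not overlap between groups and was 0.575%, 0.591%, 0.565% and 0.492% in IMF1 to IMF4 and 0.406%, 0.461%, 0.426% and 0.403% in SF1 to SF4.

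Log2 fold changes varied weakly with gene length. All genes of up to 1000 bases had a median log2 fold change of 0.07 and those over 4000 bases -0.11. The 48 members of up to 1000 bases had a median of 0.25 and the 28 members above that and up to 2000 bases 0.26.

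The subunits encoded by mitochondrial DNA are not members by the rule. All 13 had a positive log2 fold change (median 0.53), 10 separated the groups with IMF above SF (18.0% of all genes did), and 4 were called higher (*ND3*, *COX2*, *CYTB* and *ATP8*, 30.8% of the 13 against 14.4% of all genes) and 0 lower (0 lower at an unadjusted p under 0.05 by edgeR, and 0 after adjustment by DESeq2 or limma-voom). DESeq2 called 7 of the 13 higher and limma-voom 4. *ND3*, encoding a membrane subunit of complex I, was at 347, 376, 316 and 283 CPM in IMF1 to IMF4 and 86.3, 185, 159.8 and 196 CPM in SF1 to SF4 (a log2 fold change of 1.08, SE 0.24, adjusted p = 0.0122). SF1 was the lowest clone for all 13 genes, at 0.396 to 0.654 of the mean of the other SF clones, and IMF2 was the highest IMF clone for all 13. Without SF1, 8 of the 13 were called, and without SF2, IMF2, IMF3 or IMF4, 2 were. *COX1*, the catalytic subunit of complex IV, gave 0.14 (adjusted p = 0.616).

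**Figure D5:**
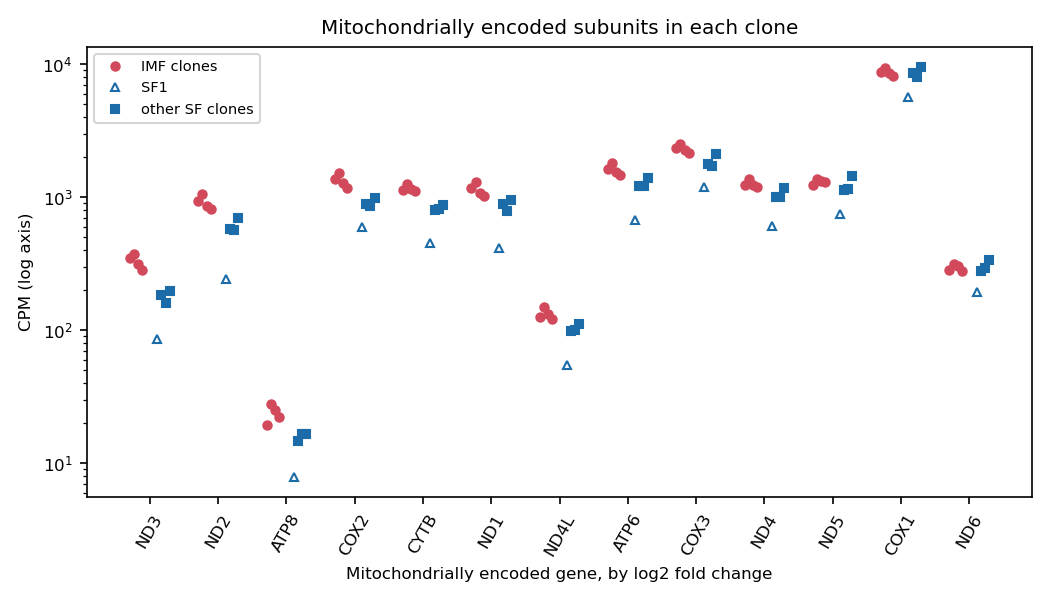
CPM (log axis) of the 13 mitochondrially encoded subunits in each clone, with IMF clones as red circles, SF1 as an open triangle and the other SF clones as blue squares, ordered by log2 fold change. SF1 lies below every other clone for each gene, and the distance between the IMF clones and the other SF clones narrows from ND3 to ND6.

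Genes that serve the chain were counted from lists, to be read against 14.4% of all genes higher and 11.4% lower. Among genes above the median level 17.8% to 20.2% were higher. Of 3 nuclear subunits or carriers outside the rule, *CYCS*, which encodes cytochrome c, was higher (a log2 fold change of 0.61, SE 0.12, adjusted p = 0.00667), *NDUFAB1*, the mitochondrial acyl carrier protein, was higher (log2 fold change 0.31, adjusted p = 0.0331), and *CYC1*, encoding cytochrome c1 of complex III, was not called by edgeR (log2 fold change 0.19, adjusted p = 0.0951). DESeq2 called all 3 higher. Among the assembly factors 2 of 18 for complex I were higher and 1 lower, 2 of 4 for complex II, 2 of 5 for complex III and 5 of 22 for complex IV were higher with 0 lower, and 1 of 5 for complex V was higher and 1 lower. For complex I assembly the share of higher genes was 11.1%, and DESeq2 gave 5 of 18 and limma-voom 3 of 18. Of the 22 for complex IV, 1 was lower at an unadjusted p under 0.05, and no list for complexes II to IV held a lower member after adjustment by DESeq2 or limma-voom. *ACAD9*, a complex I assembly factor related to acyl-CoA dehydrogenases, was higher by 0.85 (adjusted p = 0.000767), and *TMEM242*, an assembly factor of complex V, was lower, with a log2 fold change of -0.53 (adjusted p = 0.00498).

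Of 14 regulators of mitochondrial biogenesis 6 were higher (14.4% of all genes were) and 0 lower (11.4% of all genes were). At an unadjusted p under 0.05 0 were lower, and 0 by DESeq2 or limma-voom. *POLRMT*, the mitochondrial RNA polymerase, was at 41.4, 40.6, 45.6 and 43.7 CPM in IMF1 to IMF4 and 24.6, 19.3, 24.0 and 24.5 CPM in SF1 to SF4 (a log2 fold change of 0.89, SE 0.093, adjusted p = 0.000327). *TFAM*, which packages mitochondrial DNA and starts its transcription, was at 22.3, 26.1, 23.9 and 20.1 CPM in IMF1 to IMF4 and 14.0, 16.1, 16.5 and 13.6 CPM in SF1 to SF4 (a log2 fold change of 0.62, SE 0.11, adjusted p = 0.00391). *GABPA*, a subunit of the nuclear respiratory factor 2, was higher by 0.30 (adjusted p = 0.0117). *PPARGC1A*, encoding the coactivator PGC-1 alpha, was at 3.60, 2.91, 3.54 and 3.90 CPM in IMF1 to IMF4 and 0, 2.05, 0.162 and 0.937 CPM in SF1 to SF4 and was not called by edgeR (a log2 fold change of 2.15, SE 0.90, adjusted p = 0.116) or DESeq2 (adjusted p = 0.0757), but was called by limma-voom (log2 fold change 3.50, adjusted p = 0.0244). *NRF1* gave 0.01 (adjusted p = 0.937). The IMF clones were alike in *PPARGC1A*, the SF clones ran from no count to SF2 at 2.05 CPM, and the groups did not overlap.

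Mitochondrial genes outside oxidative phosphorylation were counted in the same fit, again to be read against 14.4% of all genes higher and 11.4% lower. Of 78 mitochondrial ribosomal protein genes 43 (55.1%) were higher and 0 lower, with a median of 0.34 (0 lower at an unadjusted p under 0.05, and 0 by DESeq2 or limma-voom), and the count was 28, 25 and 28 without IMF1, IMF2 or IMF3, where the share of all genes also fell. Of 18 genes of mitochondrial import and carriers 10 were higher and 0 lower (1 lower at an unadjusted p under 0.05, 1 by DESeq2 and 0 by limma-voom), among them *SLC25A5*, an ADP/ATP carrier, by 0.88 (adjusted p = 6.71e-05). Of 14 citric acid cycle genes outside complex II 6 were higher and 0 lower (0 at an unadjusted p under 0.05, and 0 by DESeq2 or limma-voom). *CS*, encoding citrate synthase, gave 0.10 (adjusted p = 0.369). Among the 78 ribosomal protein genes IMF2 was the highest IMF clone for 57 and IMF4 the lowest for 57, as for most members of the respiratory chain.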

How the data were processed

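RNA-seq libraries of 8 bovine preadipocyte clones (4 IMF, 4 SF) were analysed, with groups taken from the sample labels. The authors trimmed, aligned and counted the reads and deposited whole-number counts for each clone, not normalized. The submitters' processing notes name Trimmomatic 0.39, STAR 2.7.11a, featureCounts 2.0.2 and DESeq2 1.42.0, whereas the paper's methods name HISAT2 as the aligner and ARS-UCD2.0 as the assembly. The labels describe a dUTP protocol and the paper's methods a non-stranded kit, so reads of overlapping genes may be shared. The authors also deposited group means (signal), and from their DESeq2 comparison of the groups log2 fold changes, a test statistic (score) and p-values, none of which were used. One row without a gene name (0.0148% to 0.0209% of counts) was left out.

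The tool was edgeR 4.0.16 (R 4.3.3, TMM normalization, quasi-likelihood test, two-sided, Benjamini-Hochberg adjustment) on the 18339 of 18871 genes with at least 20 counts in total. CPM are TMM-scaled, and TPM used the deposited gene lengths without TMM scaling. SE is that of the log2 fold change. Counting floors cover counting error only. The test was tried on simulated counts. Members and lists were chosen with earlier results of these data known. Named genes were the 2 members per complex with the lowest adjusted p in each direction, the 2 with the highest TPM, the isoform families of complex IV, and list genes past both thresholds, and further members and list genes were named after their values were seen. Counts cover all 81 members, but 1 member is not reported here by name. Symbols and coordinates came from the RefSeq gene list for ARS-UCD2.0, in which all 81 members were found (3 by a synonym). Alternatives were DESeq2, limma-voom (limma 3.58.1), other scalings and filters, a robust dispersion, a block for clone number, and fits that each omit 1 clone. Testing the rows in the RefSeq list only, and leaving out *NDUFA12* and *ATP5MK*, were chosen after seeing the data.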

Additional observations from a re-analysis of the deposited data

Results flagged for a closer look

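In 3 of 84 groups of 4 clones tested, 1 clone stood apart from the other 3 by Dixon's criterion (critical value 0.829), where chance marks about 1 in 20 groups. *ATP5MC3* was at 78.2 CPM in SF4 and at 67.2 to 68.4 CPM in the other SF clones, all below the IMF clones. *COX7A2L* was at 51.5 CPM in SF1 and at 73.5 to 75.3 CPM in the other SF clones. The mitochondrially encoded subunits summed to 28393 TPM in IMF4 and to 34022 to 34825 TPM in the other IMF clones.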

How the results depend on the processing

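The 30 members higher in IMF became 40 with DESeq2, 30 with limma-voom, 34 with upper-quartile factors, 45 with total counts alone, 29 without a filter and 15 to 36 when 1 clone was left out (17 without IMF1, 15 without IMF2, 19 without IMF3), and 14 of the 30 were called in every setting. The share of all genes called higher moved too, from 14.4% to 17.5% with DESeq2, 15.8% with limma-voom, 15.1% with upper-quartile factors, 18.3% with total counts alone, 13.0% without a filter, 9.62% to 15.6% when 1 clone was left out and 11.5% with the replicate block. The 0 members lower in IMF became 1 without SF3 (range 0 to 1). After the group means were removed, same-numbered clones correlated at 0.094, 0.040, 0.075 and 0.28 over genes, a mean of 0.12. Clones of different numbers had a mean of -0.042, and 5 of 8 clones correlated best with their own number. No source ties the numbers to animals, so they were not taken as pairs in the main fit, and whether they are pairs cannot be told. With the clone number as a replicate block 18 members were called, 17 of them shared with the 30. Scaling by total counts alone moved the median of all genes from -0.03 to 0.12 and that of the members to 0.41 (0.38, 0.25, 0.49, 0.41 and 0.48 for complexes I to V), 0.29 above all genes under either scaling, and turned the signs of 6 members, *NDUFS7* to 0.08, *UQCR10* to 0.12, *UQCR11* to 0.13, *COX7A1* to 0.10, *COX4I1* to 0.13 and *ATP5S* to 0.11. It gave 8 called mitochondrially encoded subunits, and DESeq2 gave 7. Leaving out 1 clone gave 2 to 8 of these and 25 to 38 mitochondrial ribosomal protein genes (43 with all clones), and log2 fold changes of -0.10 to 0.011 for *ATP5S*, -0.068 to 0.027 for *COX4I1*, -0.011 to 0.11 for *COX5B*, -0.18 to 0.10 for *COX7A1*, -0.086 to 0.021 for *UQCR10* and -0.12 to 0.020 for *UQCR11*. *COX7A1* was 0.0030 with limma-voom. In all 12 members, none of them among the 30, changed sign in at least 1 setting, *UQCRB* (-0.03 without SF2), *NDUFA3*, *NDUFB2*, *NDUFB7* and *NDUFV3* besides those above. The causes were not tested. No member passed both thresholds in any setting. Of the 30 called members 15 kept their call whichever clone was left out, and depth limits *NDUFA4L2*, which was under 3 counts in 2 SF clones.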
